A study of Arabidopsis thaliana with 8 samples.

Results

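The *YUCCA* (*YUC*) genes of Arabidopsis were looked up in ChIP-seq peak lists of the flowering regulator CONSTANS (CO). The members were *YUC1* (AT4G32540), *YUC2* (AT4G13260), *YUC3* (AT1G04610), *YUC4* (AT5G11320), *YUC5* (AT5G43890), *YUC6* (AT5G25620), *YUC7* (AT2G33230), *YUC8* (AT4G28720), *YUC9* (AT1G04180) and *YUC10* (AT1G48910), which are 10 of the 27444 protein-coding genes annotated on the nuclear chromosomes. They were selected on family membership, and *YUC8* because the study uses it, with results of these peak lists already known, so that the values are given as a description and without tests. A peak was counted for a gene when it overlapped the gene body or the 5000 bp upstream of the annotated start by at least 1 bp.

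The libraries came from whole seedlings grown under long days (16 h light, 8 h dark) and harvested 12 h after dawn, with 5 g of fresh tissue for each genotype and replicate. *SUC2::CO:CIT aba1-6* carried the CO:CITRINE fusion in the *aba1-6* mutant, which is impaired in abscisic acid (ABA) production. *SUC2::CO:CIT* carried the same transgene in Col-0 without this mutation. Both derive from 1 transgenic line, the fusion was driven by the *SUC2* promoter, which is active in phloem companion cells, and chromatin bound by the fusion was pulled down with nanobodies against the tag. Each genotype gave 2 ChIP libraries and 2 input libraries, and the peak lists of the 4 ChIP libraries were analysed here.

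YUC proteins are flavin-containing monooxygenases that convert indole-3-pyruvic acid into indole-3-acetic acid, the main auxin, in the step that follows the aminotransferases TAA1 and TARs. *YUC1*, *YUC2*, *YUC4* and *YUC6* are known for their roles in shoots, flowers and embryos, and *YUC3*, *YUC5*, *YUC7*, *YUC8* and *YUC9* for their roles in roots. *YUC8* is also a target of PHYTOCHROME INTERACTING FACTORs (PIFs) in warmth and shade, and *YUC10* is a paternally expressed gene of the endosperm. CO acts in companion cells of long-day-grown leaves and binds TGTG-containing elements through its CCT domain. It does so joined to the B and C subunits of NF-Y, which can also pair with the A subunit, NF-YA, without CO. CCAAT boxes, which NF-Y recognizes, were counted apart from the TGTG elements of CO.

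The *SUC2::CO:CIT aba1-6* lists held 168 and 258 peaks in replicates 1 and 2, and the *SUC2::CO:CIT* lists held 21054 and 22724. Each peak is listed with a fold enrichment, which is the ratio of the fragments at its highest point (the summit) to the local background, and with the −log10 of its p-value and of its adjusted p-value (q-value). The fragments behind each peak were worked out from these values. The genome-wide background was 3.57 and 0.774 fragments in *SUC2::CO:CIT aba1-6*, and 11.2 and 10.8 fragments in *SUC2::CO:CIT*, so that the mutant libraries were the shallower ones. None of the summits of *SUC2::CO:CIT aba1-6* lay in sequence below 25% GC (200 bp around the summit), whereas 78.1% and 75.4% of the *SUC2::CO:CIT* summits did.

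All 10 *YUC* genes were without a peak in *SUC2::CO:CIT aba1-6*, whereas 9 of them had a peak in both replicates of *SUC2::CO:CIT*. The 10 windows held 0 peaks in each *SUC2::CO:CIT aba1-6* library, against 26 and 27 peaks in replicates 1 and 2 of *SUC2::CO:CIT*. Among all protein-coding genes, 0.998% and 1.65% had a peak in replicates 1 and 2 of *SUC2::CO:CIT aba1-6*, so that 0 of 10 genes is what the size of these lists gives at most loci. In *SUC2::CO:CIT*, 60.2% of all genes had a peak in both replicates of the same window, and 57.4% had peaks that overlapped each other between replicates, as the same 9 *YUC* genes did. The exception was *YUC2*, with a single peak in replicate 2.

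**Figure D1:**
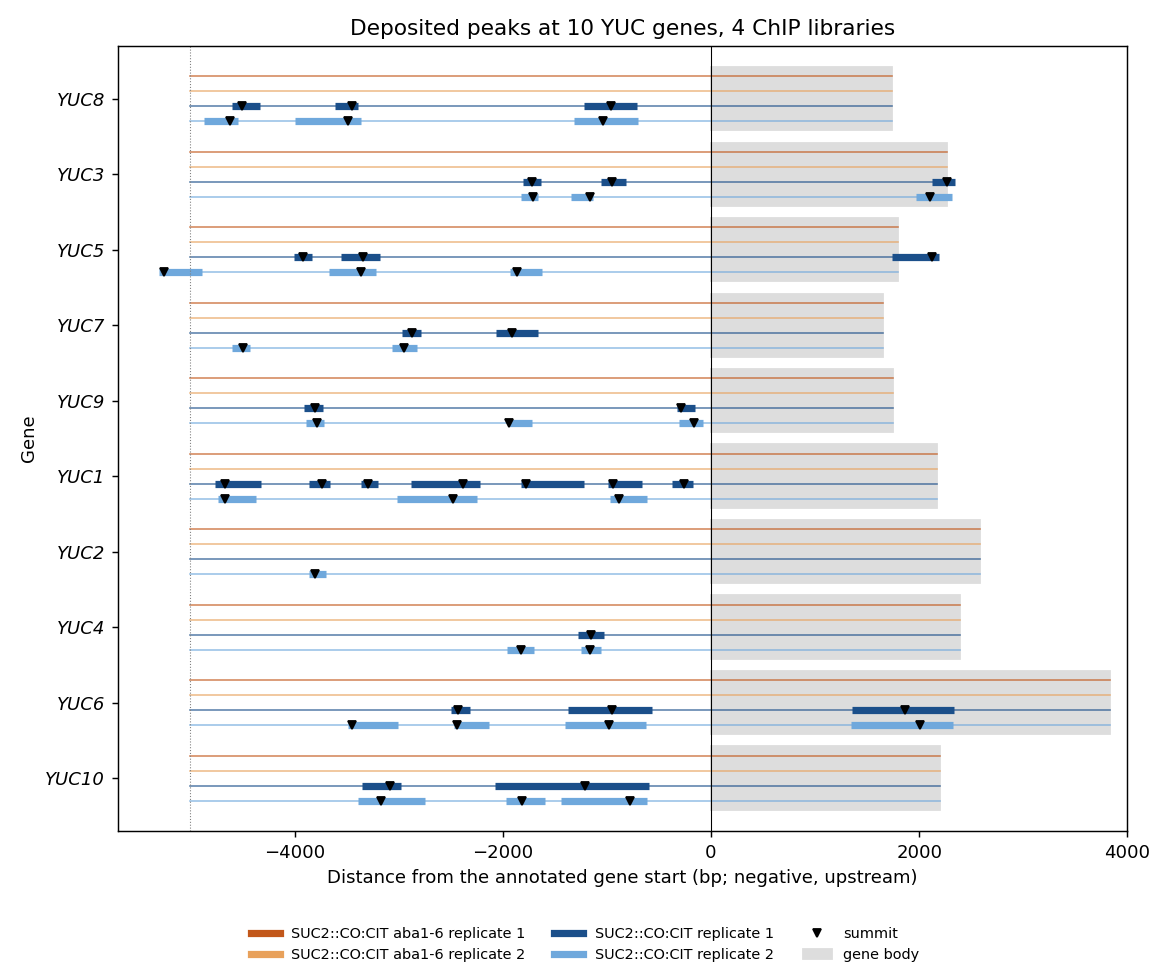
Peak intervals (bars) and summits (triangles) at the 10 *YUC* genes, with the distance from the annotated start on the x axis in bp and 4 lanes per gene, *SUC2::CO:CIT aba1-6* replicates 1 and 2 above *SUC2::CO:CIT* replicates 1 and 2. The grey boxes are gene bodies and the dotted line is the limit of 5000 bp. The *SUC2::CO:CIT aba1-6* lanes are empty, and most *SUC2::CO:CIT* peaks lie upstream of the genes.

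*YUC8* lies on chromosome 4 of TAIR10.1 (chr4:14192569-14194302, forward strand) as a gene of 1 exon, with the start codon 119 bp downstream of the annotated start. It had 3 peaks in each *SUC2::CO:CIT* replicate and each of them overlapped its counterpart. The strongest spanned 1221 to 706 bp upstream of the start in replicate 1 and 1319 to 705 bp upstream in replicate 2. Its summits lay 961 and 1041 bp upstream, and 300 bp between and around them are shown because this is the stretch of *YUC8* with the highest enrichment (RefSeq, TAIR10.1, 5′ to 3′, with TGTG or CACA and CCAAT or ATTGG in capitals).
YUC8 (chr4:14191418-14191717, forward strand): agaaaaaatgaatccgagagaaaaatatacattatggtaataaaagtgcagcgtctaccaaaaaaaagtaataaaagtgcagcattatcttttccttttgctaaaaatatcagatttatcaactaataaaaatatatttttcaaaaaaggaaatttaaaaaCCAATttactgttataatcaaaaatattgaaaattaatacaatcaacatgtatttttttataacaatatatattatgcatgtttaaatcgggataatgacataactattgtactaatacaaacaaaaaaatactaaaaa
The stretch had a GC content of 21%, held runs of up to 18 bases of A and T only, and carried 1 CCAAT and 0 TGTG words on either strand.

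At this peak, *YUC8* had 47 fragments over a background of 11.2 in replicate 1 of *SUC2::CO:CIT* (95% exact Poisson interval 34.5 to 62.5) and 51 fragments over 10.8 in replicate 2 (38.0 to 67.1). The intervals cover Poisson counting error only, and they are too narrow where reads amplified by PCR are not independent molecules. The fold enrichment was 3.94 and 4.35, a mean of 4.15 ± 0.29 (SD, n = 2), and the −log10 p was 15.5 and 18.5, with a −log10 q of 13.0 and 15.7. The replicates thus differed by less than the counting error of either. By −log10 p the peak ranked 3591 of 21054 in replicate 1 and 2281 of 22724 in replicate 2, and 16.3% of all shared peaks had a mean −log10 p at least as high. It was therefore a strong peak of these lists, without being among the most enriched, which reached a fold enrichment of 9.36 and 8.53.

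The other *YUC8* peaks were weaker and farther from the gene. One had its summit 3452 and 3490 bp upstream in replicates 1 and 2, with a fold enrichment of 2.46 and 3.3 and 29 and 38 fragments. The other had its summit 4500 and 4623 bp upstream, with a fold enrichment of 2.17 and 2.44, and its intervals overlapped by 59 bp. All 6 summits had *YUC8* as the nearest protein-coding gene, since the upstream region is free of other protein-coding genes for 10400 bp, the longest such stretch among the members. The GC content around the summits of the strongest peak was 18% and 22%, that of the middle peak 20% and 19.5%, and that of the outermost peak 24% and 25.5%.

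**Figure D2:**
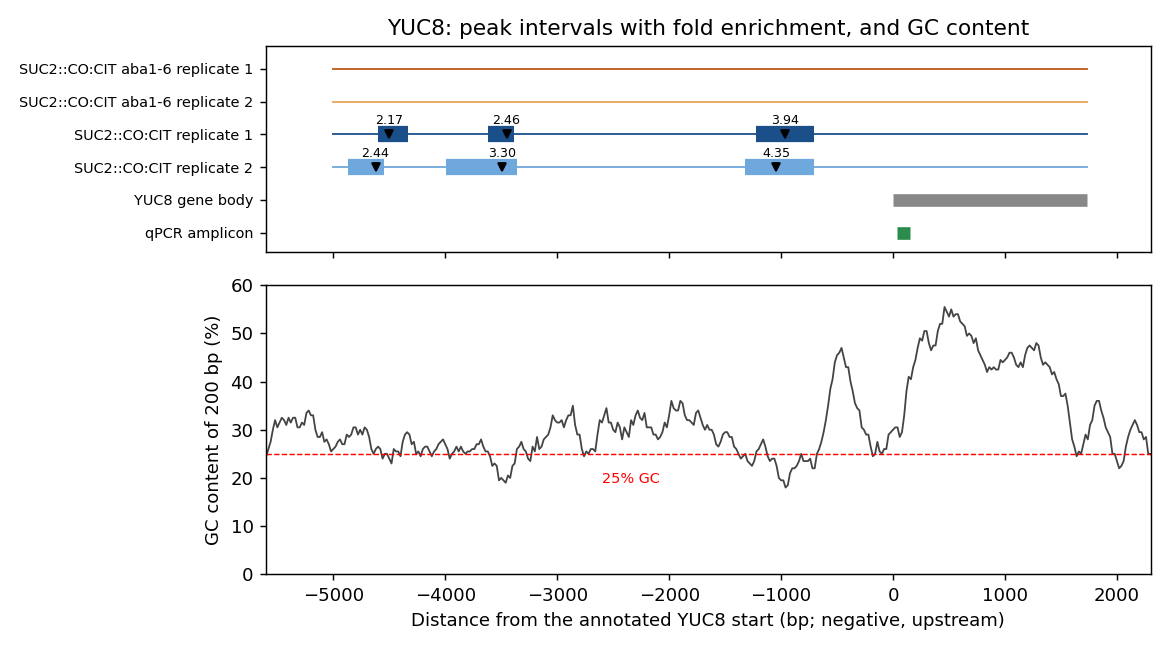
Upper panel, *YUC8* peak intervals in the 4 libraries (*SUC2::CO:CIT aba1-6* above *SUC2::CO:CIT*) with the fold enrichment above each summit, the gene body and the qPCR amplicon. Lower panel, GC content of 200 bp windows (%) along the same axis (bp from the annotated start). The strongest peak, with fold enrichments of 3.94 and 4.35, lies over the dip in GC content about 961 to 1041 bp upstream, and the peaks end before the GC-rich stretch next to the gene.

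Between this peak and the start, *YUC8* carries sequence words that are known from CO and PIF targets, and no library had a peak over them. In the 5000 bp upstream, the CO-responsive word with TGTG and ATG 3 bases apart was found at 608 and 170 bp upstream, and the G-box CACGTG, which PIFs bind, at 484 and 448 bp upstream, all nearer to the start than the edge of the peaks at 706 and 705 bp. Its shorter form, TGTGNNATG, was not found in this stretch. Over all genes, 60.9% of upstream regions of this length hold the longer word, 52.7% hold TGTGNNATG and 45.2% hold CACGTG, on either strand. TGTG itself occurred 42 times and CCAAT 12 times in the *YUC8* upstream region, against medians of 39 and 11 over all genes, and both CO-responsive words include a TGTG. The CCAAT word at 990 bp upstream lay between the summits of the strongest peak.

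The amplicon that the study designed for the *YUC8* start, for ChIP-qPCR of RNA polymerase II, was placed on the genome by its primers, which are shown because they mark the part of the locus examined by another assay.
YUC8 forward primer (chr4:14192601-14192626, forward strand): tccattgattctctctctctctctct
YUC8 reverse primer (chr4:14192698-14192719, reverse strand): tcttgatccatcaaacgaaaca
It spans 119 bp, 32 to 150 bp downstream of the annotated start and across the start codon. None of the peaks in the 4 libraries overlapped it, and the nearest *SUC2::CO:CIT* peaks ended 738 and 737 bp upstream of it in replicates 1 and 2. With this amplicon, the study saw no clear change of polymerase occupancy in ABA-deficient mutants, in an assay that did not measure CO.

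Of the other members with root roles, *YUC9*, *YUC3*, *YUC5* and *YUC7* had no peak as enriched as the strongest one of *YUC8*. *YUC9* (chr1:1104493-1106241, forward strand) had the peaks nearest to an annotated start among the shared ones, with summits 287 and 164 bp upstream, a fold enrichment of 2.63 and 3.3 and 31 and 38 fragments in replicates 1 and 2. The 100 bp between these summits are shown because they are the only shared peak of the family within 500 bp of a start (same source and capitals).
YUC9 (chr1:1104217-1104316, forward strand): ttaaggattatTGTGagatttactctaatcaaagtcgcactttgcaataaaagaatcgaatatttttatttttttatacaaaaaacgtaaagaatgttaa
A second shared *YUC9* peak lay 3807 and 3781 bp upstream, where EIF2 GAMMA (AT1G04170), a subunit of a translation initiation factor, has its start nearer to the replicate 1 summit. Another, 1937 bp upstream in replicate 2 alone, was the weakest *YUC* peak of that list, with a fold enrichment of 2.03 and 23 fragments.

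*YUC3* (chr1:1279351-1281618, forward strand) had 3 peaks in each *SUC2::CO:CIT* replicate, of which 2 were shared. At 1720 and 1714 bp upstream the fold enrichment was 2.79 in both replicates, and the summits were 6 bp apart. The other shared peak lay in the 3′ untranslated region, 2263 and 2099 bp downstream of the start, with a fold enrichment of 2.71 and 2.96. Peaks 950 bp upstream in replicate 1 and 1166 bp upstream in replicate 2 did not overlap. *YUC3* thus had as many peaks as *YUC8*, but none with the enrichment of the strongest *YUC8* peak.

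*YUC5* (chr5:17648576-17650375, reverse strand, 1 exon) had its strongest shared peak far upstream, with summits at 3343 and 3358 bp, a fold enrichment of 3.04 and 3.38 and 40 and 42 fragments. Another replicate 1 peak began inside the gene and had its summit 2126 bp from the start, downstream of the gene, where replicate 2 had an overlapping peak outside the window. Peaks at 3919 bp in replicate 1, and at 1861 and 5250 bp in replicate 2, were seen in 1 library each. The peak at 5250 bp was counted because its interval crossed the limit of 5000 bp, and it was the outermost one counted for any member. The nearest peaks beyond the limit were those of *YUC3*, at 5352 and 5367 bp with a fold enrichment of 3.61 and 3.3. Next came *YUC8* in replicate 2, at 5973 bp with 2.26, and then *YUC2* in replicate 1, at 6054 bp with 2.30.

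*YUC7* (chr2:14080319-14081971, reverse strand) was the member whose strongest shared peak was the lowest, with summits 2867 and 2948 bp upstream, a fold enrichment of 2.63 and 2.54 and 31 and 29 fragments. For this peak, and for peaks at 1908 bp in replicate 1 and 4496 bp in replicate 2, the nearest start was that of *LCR49* (AT2G33233), which encodes a small cysteine-rich protein. *YUC7* had only 1058 bp free of other protein-coding genes upstream, the shortest stretch among the members. None of its peaks had the *YUC7* start as the nearest one.

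Of the members with shoot and flower roles, *YUC1* and *YUC6* had the strongest shared peaks of the family besides *YUC8*. *YUC1* (chr4:15700829-15703000, forward strand) had 7 peaks in replicate 1, the most of any member, and 3 in replicate 2. Its strongest shared peak had summits 2383 and 2482 bp upstream, with a fold enrichment of 4.52 and 4.06 (4.29 ± 0.33, SD, n = 2) and 54 and 47 fragments. A second lay 4663 and 4665 bp upstream with 4.35 and 3.72, and another 942 and 880 bp upstream with 2.55 and 3.13. The 4 replicate 1 peaks without a counterpart had a fold enrichment between 2.30 and 3.04. The 3 outermost *YUC1* peaks of replicate 1 and the outermost one of replicate 2 were nearer to the start of AT4G32530, an ATPase subunit gene outside the window.

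*YUC6* (chr5:8934941-8938768, reverse strand) was the member with an enriched intron. This peak spanned 986 and 988 bp with summits 1859 and 2011 bp downstream of the start, and the fold enrichment was 4.52 and 3.55 (4.03 ± 0.68, SD, n = 2) with 54 and 41 fragments. In replicate 1 it thus equalled the strongest *YUC1* peak, and both ranked 1594 of 21054. A peak in the *YUC6* promoter had summits 948 and 982 bp upstream and a fold enrichment of 3.61 and 4.39, so that the replicates put the intronic and the promoter peak in opposite order. Another shared peak, 2431 and 2440 bp upstream, had a fold enrichment of 3.45 and 2.70, and a peak 3449 bp upstream with 2.28 was seen in replicate 2 alone.

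*YUC4* (chr5:3611247-3613640, reverse strand) had 1 shared peak, 1153 and 1160 bp upstream, with a fold enrichment of 2.55 and 2.96, and a stronger peak in replicate 2 alone, 1829 bp upstream with 3.55 and 41 fragments. *YUC2* (chr4:7721487-7724070, reverse strand) had no peak in replicate 1 and a peak 3806 bp upstream in replicate 2, with a fold enrichment of 2.51 and 30 fragments, where the start of AT4G13270 was nearer. No bin of the *YUC2* window was below 25% GC and its GC content, 34.9%, was the highest of the family.

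*YUC10* (chr1:18091681-18093878, forward strand), the imprinted member, had the broadest peak. In replicate 1 it spanned 1480 bp with the summit 1207 bp upstream, a fold enrichment of 3.53 and 42 fragments, and in replicate 2 the same stretch held separate peaks with summits 777 and 1819 bp upstream and a fold enrichment of 3.89 and 2.62. The other shared peak, 3085 and 3169 bp upstream with 2.46 and 3.89, had its summits nearer to the start of AT1G48900, a gene for a signal recognition particle subunit. It differed most between replicates, by 1.58 times. The annotated models of *YUC1*, *YUC4*, *YUC7* and *YUC10* are marked as partial in RefSeq, and those of *YUC7* and *YUC10* begin at the start codon, so that their distances may not be counted from the transcription start.

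The stretches of 100 bp at the strongest shared peaks of *YUC1*, *YUC6* and *YUC10*, and at the lone peak of *YUC2*, are shown for comparison with *YUC8*, as the most enriched and the least supported sites of the family (RefSeq, TAIR10.1, strand of the gene, capitals as above).
YUC1 (chr4:15698346-15698445, forward strand): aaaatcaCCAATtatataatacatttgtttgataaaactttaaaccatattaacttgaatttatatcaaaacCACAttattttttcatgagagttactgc
YUC6 (chr5:8936783-8936882, reverse strand): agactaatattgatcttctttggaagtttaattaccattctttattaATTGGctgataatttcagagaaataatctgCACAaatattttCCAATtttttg
YUC10 (chr1:18090639-18090738, forward strand): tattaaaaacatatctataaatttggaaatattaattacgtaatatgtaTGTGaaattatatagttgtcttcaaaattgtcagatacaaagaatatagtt
YUC2 (chr4:7727826-7727925, reverse strand): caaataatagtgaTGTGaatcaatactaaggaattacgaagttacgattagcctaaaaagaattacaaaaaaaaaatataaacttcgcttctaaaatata
All 4 had a GC content between 19% and 25%, and each carried 1 TGTG or CACA word. The *YUC1*, *YUC6* and *YUC10* stretches were centred between the summits of both replicates. At *YUC6* and *YUC10*, both summits lay outside the stretch shown.

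The strongest shared peak of each of the 9 members was read over 300 bp centred between the summits of both replicates. TGTG or CACA was found in 8, the exception being *YUC8*. At *YUC10* the summits were 430 bp apart, and both lay outside the stretch read. Of the 16861 shared peaks of these lists 73.9% held the word in the same length, as did 84.5% of the 300 bp upstream of all genes. CCAAT or ATTGG was found in 4 of the 9, namely *YUC1*, *YUC4*, *YUC6* and *YUC8*, against 39.8% of the shared peaks and 51.9% of promoters. TGTGNNATG, its variant with 3 bases between TGTG and ATG, and CACGTG were found in 0 of the 9, and in 2.77%, 3.05% and 1.60% of all shared peaks. These matches describe the sequence and do not mark binding sites.

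Of the peaks counted in the *YUC* windows, most lay upstream and far from starts, at moderate enrichment. The windows give 5000 bp to the upstream side, against gene bodies of 1653 to 3828 bp, so that the counting rule itself favours such positions. Of the 26 and 27 peaks of replicates 1 and 2, 23 and 25 had their summit upstream of the gene, 15 and 18 of them over 1500 bp from the start and 2 and 1 within 500 bp, and none lay in a coding exon. The median fold enrichment was 2.78 and 2.96, with a range of 2.13 to 4.52 and of 2.03 to 4.39, against medians of 3.12 and 3.13 for all peaks of the lists. By −log10 p, 9 of the 26 and 12 of the 27 stood above the median of their list. The start of another protein-coding gene was nearer to the summit for 7 of the 26 and 5 of the 27. These positions were not compared with those in the windows of all genes.

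Of the *YUC* peaks, 19 in each replicate overlapped a peak of the other, which was 73.1% in replicate 1 and 70.4% in replicate 2, against 80.1% and 74.2% for the complete lists. The summits of the 19 pairs were 2 to 430 bp apart, with a median of 80 bp, against a median of 52 bp for all 16861 pairs. The fold enrichment in replicate 2 was 0.784 to 1.58 times that in replicate 1, with a median of 1.10, whereas 10% of all pairs were below 0.794 and 10% above 1.3, with a median of 1.01. The *YUC6* peak 2431 bp upstream and the *YUC10* peak 3085 bp upstream were the extremes of the family. The peaks without a counterpart had a median fold enrichment of 2.64 and 2.61, close to the 2.71 and 2.70 of all such peaks.

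**Figure D3:**
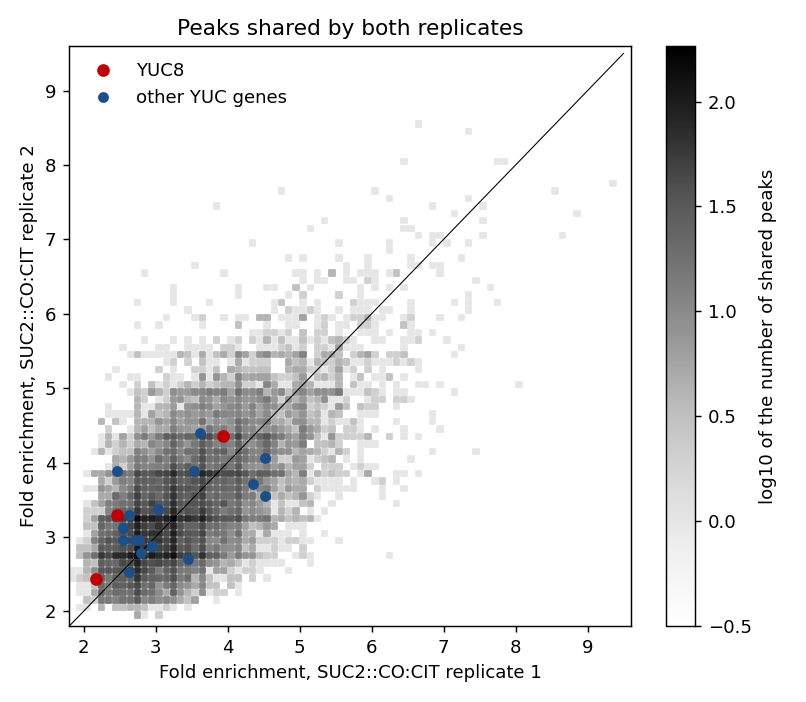
Fold enrichment of peaks found in replicates 1 and 2 of *SUC2::CO:CIT* with overlap, replicate 1 on the x axis and replicate 2 on the y axis. Red points are *YUC8*, blue points the other *YUC* genes, grey squares all 16861 shared peaks (darker, more peaks, log10 scale) and the line marks equal values. The *YUC* pairs lie within the cloud of all peaks, with ratios between 0.784 and 1.58.

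The number of *YUC* genes with a peak depended on the demands placed on it, as it did for all genes. With a −log10 q of at least 5 in both replicates, 8 of 10 *YUC* genes were left, against 51.7% of all genes, *YUC4* being lost beside *YUC2*. At a −log10 q of at least 10, 4 were left, against 23.6%, namely *YUC1*, *YUC6*, *YUC8* and *YUC10*. With the upstream window shortened to 1000 bp, 6 had a peak in both replicates, against 35.7%. The differences between the family and all genes in these counts were not tested.

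The *YUC* genes have long upstream regions without other genes, and more AT-rich sequence in their windows than most genes. In 7 of 10, at least 4500 bp upstream were free of other protein-coding genes, against 11.2% of all genes, and the median was 6031.5 bp against 944 bp. Of these 7, 6 had a peak in both replicates, all but *YUC2*, whereas 81.9% of the 3086 genes with such upstream regions did. The mean number of peaks per gene was 2.60 and 2.70 for the *YUC* genes in replicates 1 and 2, against 2.24 and 2.40 for those 3086 genes and 1.25 and 1.36 for all genes. The share of genes with at least 3 peaks was 5 and 7 of 10 for the *YUC* genes, against 41.8% and 45.4% of the 3086 genes and 16.0% and 18.2% of all genes.

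In bins of 200 bp, 52 of the 356 bins in the *YUC* windows (14.6%) were below 25% GC, against 12.3% in the windows of genes with long free upstream regions and 6.10% over all windows. The members differed widely in this number, which was 12 in *YUC6*, 10 in *YUC1*, 7 in *YUC10*, 6 in *YUC8* and *YUC3*, 3 in *YUC4*, *YUC5* and *YUC7*, 2 in *YUC9* and 0 in *YUC2*. Across the 10 genes, the number of such bins and the mean number of peaks had a Pearson correlation of 0.80 and a Spearman correlation of 0.78, and over all 27444 genes the Spearman correlation was 0.79. These genes share the same libraries and are not independent replicates, so that the values are only descriptive. A shared summit lay in 13 of the 52 AT-rich *YUC* bins (25%), against 30.7% of all AT-rich bins, and in 4 of the 304 other *YUC* bins (1.32%), against 0.688%. Its part in the number of *YUC* peaks was not tested.

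Set beside all genes with the same number of AT-rich bins, the members lay on both sides of the mean number of peaks. *YUC8* and *YUC3* averaged 3.00 peaks per replicate, against 2.82 for all 932 genes with 6 such bins, of which 98.3% had a peak in both replicates. *YUC1* averaged 5.00 against 3.75 for genes with 10 bins, and *YUC6* averaged 3.5 against 3.82 for genes with 12. *YUC5* averaged 3.00 and *YUC4* 1.5 against 1.84 for genes with 3 bins, and *YUC2* averaged 0.50 against 0.275 for genes with none. All members stayed within the range from the 10th to the 90th percentile of genes with as many bins, with *YUC5* and *YUC9* at its upper edge.

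**Figure D4:**
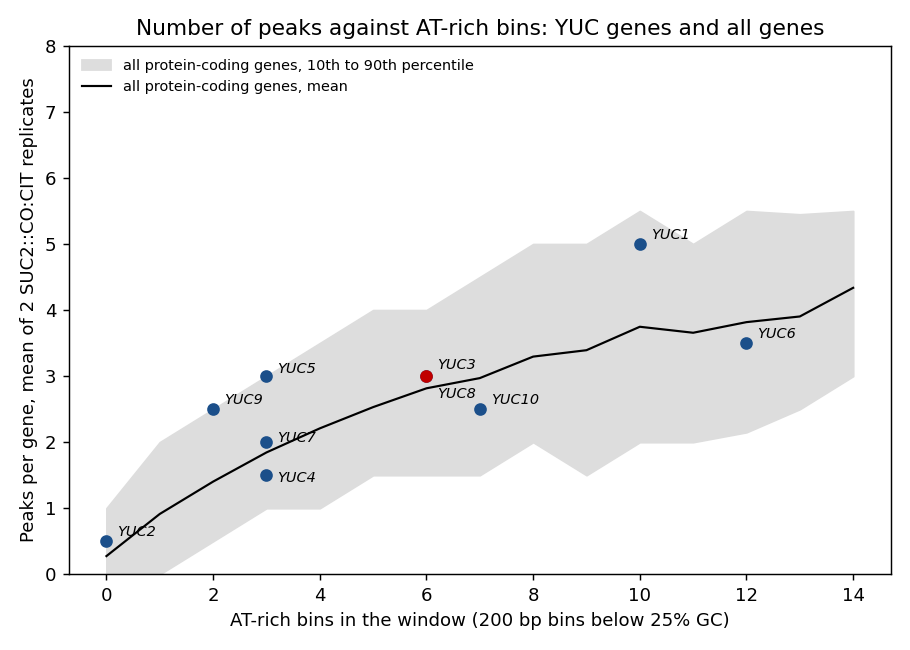
Mean number of peaks per gene over both *SUC2::CO:CIT* replicates (y axis) against the number of 200 bp bins below 25% GC in the window (x axis). Points are the *YUC* genes (*YUC8* in red, with *YUC3* at the same place), the line is the mean over all protein-coding genes with as many bins and the band their 10th to 90th percentile. The *YUC* points lie on both sides of the line and within the band, with *YUC8* at 3.00 against 2.82 and *YUC5* and *YUC9* at the upper edge.

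The absence of *YUC* peaks in *SUC2::CO:CIT aba1-6* was set against the depth of its libraries. The background of *SUC2::CO:CIT aba1-6* replicate 1 was 31.9% and 32.9% of that in replicates 1 and 2 of *SUC2::CO:CIT*, and 11 fragments were needed at this background for a −log10 p of 3, near the lowest in any list. At equal enrichment, 12 of the 26 and 14 of the 27 *YUC* summits scaled to that depth would have at least 11 fragments, in 7 and 8 genes. At the lower limit of the counting interval this held for 4 and 3 summits, which were those of *YUC1*, *YUC6* and *YUC8*. The strongest *YUC8* peak scaled to 15 (11.02 to 19.95) and 16.8 (12.5 to 22.1) fragments, and the list of that library held no *YUC8* peak. These intervals carry the counting error of *SUC2::CO:CIT* alone. The summits were picked because they passed as peaks in *SUC2::CO:CIT*, so that their fragments, and the numbers scaled from them, may be too high. The count of summits that reach 11 fragments is therefore no measure of loss in *SUC2::CO:CIT aba1-6*. The scaling uses the genome-wide background, and since no summit of *SUC2::CO:CIT aba1-6* lay below 25% GC at any locus, whether it holds at a site of 18% to 22% GC was not tested.

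The background of *SUC2::CO:CIT aba1-6* replicate 2 was 6.92% and 7.14% of that in *SUC2::CO:CIT*, and 5 fragments were needed. None of the *YUC* summits scaled to this number, with at most 3.74 and 3.64 fragments for the strongest and 3.25 and 3.64 for *YUC8*. All *YUC* peaks of equal enrichment would thus be expected below this number, although counting error could bring some of them above it. Genotype, depth and the GC content of the peaks differed together between these libraries and cannot be told apart at the *YUC* genes. The peaks nearest to any *YUC* window were 5.70 kb away in replicate 1, next to *YUC3*, and 6.38 kb away in replicate 2, next to *YUC4*, and those nearest to the *YUC8* window were 137774 and 102554 bp away.

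**Figure D5:**
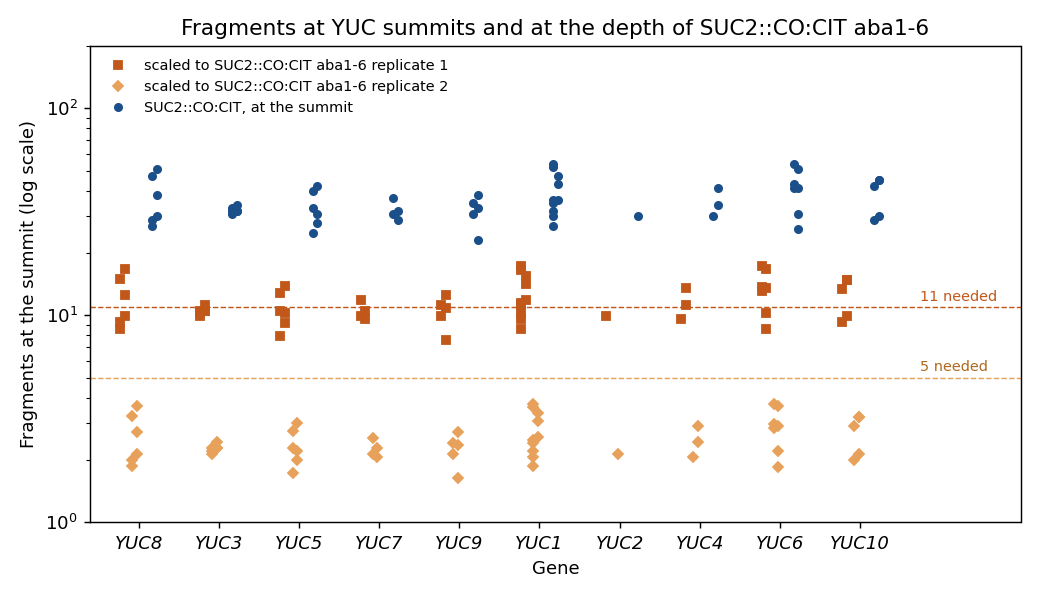
Fragments at each *YUC* summit (log scale), scaled to the background of *SUC2::CO:CIT aba1-6* replicate 1 (squares) and replicate 2 (diamonds) and as found in *SUC2::CO:CIT* (circles, both replicates). Dashed lines are the 11 and 5 fragments needed at the background of *SUC2::CO:CIT aba1-6*. Squares lie on both sides of their line and all diamonds lie below theirs.

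Among the genes outside the family, those most like *YUC8* were sought by the −log10 p and the position of the strongest shared peak in both replicates (4 values, 15732 genes compared). The nearest was AT1G23950, which encodes a protein of unknown function, with summits 949 and 1013 bp upstream and a −log10 p of 16.8 and 20.1, against 961 and 1041 bp and 15.5 and 18.5 for *YUC8*. It was followed by *FD3* (AT2G27510), which encodes a ferredoxin, with 991 and 1023 bp and 18.1 and 19.4. AT3G26935, AT2G26050 and AT5G42500, which encode a DHHC-type zinc finger protein, a protein of unknown function and a dirigent-like protein, came next, with distances of 0.470, 0.474 and 0.489 from *YUC8* on this measure, against 0.347 and 0.422 for the first ones. GC content around the replicate 1 summits of these 5 genes ranged from 16.5% to 21.5%, against 18% for *YUC8*.

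Other auxin genes, PIF genes and related flavin monooxygenases, listed by role, had no peak in *SUC2::CO:CIT aba1-6* and peaks in most windows of *SUC2::CO:CIT*. Over the 42 auxin genes in 5 lists, which include *YUC11*, 33 (78.6%) had peaks in replicates 1 and 2 of *SUC2::CO:CIT*. This compares with 9 of the 10 members *YUC1* to *YUC10* and 60.2% of all genes. Of all 53 genes in the 7 lists, 0 had a peak in either *SUC2::CO:CIT aba1-6* library. Among all genes, only 0.998% and 1.65% had a peak in replicates 1 and 2 of *SUC2::CO:CIT aba1-6*. Upstream of the YUC step, 2 of 4 genes for the aminotransferases and *YUC11* had peaks in both, with *TAR2* (AT4G24670) the highest by −log10 p, at 15.5 and 11.7, inside the gene 3864 and 3890 bp from its start. *TAA1* (AT1G70560), the main aminotransferase, was the other one. *YUC11* (AT1G21430), which was not among the members, had 0 peaks in replicate 1 and 1 in replicate 2. Of the genes of tryptophan synthesis and of other routes from indole, 8 of 10 had peaks in both, the highest being at *NIT1* (AT3G44310), a nitrilase gene, with a −log10 p of 26.0 and 26.7 at 4329 and 4364 bp upstream, in a cluster where *NIT2* (AT3G44300) shares the peak.

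Among genes of auxin conjugation and oxidation, 10 of 13 had peaks in both. This list also holds hydrolase genes, whose products release auxin from conjugates. The highest peak was that of *GH3.4* (AT1G59500), which links auxin to amino acids, with a −log10 p of 33.1 and 16.2 at 622 and 565 bp upstream. Its replicates differed by more than those of *YUC8*. Of the transporters, 8 of 9 had peaks in both, with *PIN2* (AT5G57090), an efflux carrier of roots, at 18.1 and 14.7. Of the receptors, 5 of 6 did, with *AFB1* (AT4G03190) at 13.0 and 14.1, and its summits lay 198 and 268 bp upstream. All 5 PIF genes did, with *PIF1* (AT2G20180) at 18.1 and 17.3, 1304 and 1366 bp upstream. All 6 flavin monooxygenase genes outside the YUC clade did as well, with *FMOGS-OX2* (AT1G62540), which acts on glucosinolates, at 14.3 and 13.5. This peak lay 3435 and 3457 bp downstream of its start, and another gene of the list had the same mean −log10 p. The peaks of both replicates overlapped each other in 7 of the 10 indole route genes, 7 of the 9 transporters and 4 of the 5 PIF genes. In the other lists this held for every gene counted. Over all genes, 60.2% had peaks in both replicates and 57.4% had overlapping ones. Differences between these lists and the *YUC* family were not tested.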

How the data were processed

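ChIP-seq of CO:CITRINE was analysed from the deposited peak lists of 4 ChIP libraries, 2 each from *SUC2::CO:CIT aba1-6* and *SUC2::CO:CIT*. Samples were grouped by their labels. According to the methods, reads were trimmed (fastp), mapped (Bowtie2) and turned by the authors into peaks of each ChIP library against its input (macs2), with no pooling of replicates, and the versions are not given in the sources used here. The deposited fold enrichment is the ratio of fragments to local background with a pseudocount of 1 on both, which lowers it most in shallow libraries. The deposited −log10 p-values and q-values are those of macs2, the deposited score, 10 times the −log10 p without its decimals, was left aside, and the other deposited value is the summit's distance from the start of the peak. The lists precede any filter for reproducibility between replicates, and no coverage or input data were used here beyond what the peak caller had included.

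Coordinates and gene models were those of RefSeq TAIR10.1, whose sequence accessions the lists use. Fragments at a summit and in its background were taken as the integer and the Poisson mean that return both the fold enrichment and the p-value (within 0.01 on the −log10 scale for at least 98.2% of peaks in every library), after the calculation had been tested on simulated data. GC content was taken over 200 bp around summits. Scaling to a shallower library multiplied fragments by the ratio of the genome-wide backgrounds. Libraries are biological replicates per the labels. No test was made, since the members and lists were chosen with earlier results of these data known. All 10 members were named, with, of each other list, the gene with the highest mean −log10 p of a shared peak, the 5 genes nearest to *YUC8* by Euclidean distance (log2 of −log10 p, and summit distance in units of 100 bp, in both replicates) and genes whose start was nearer to a summit. *TAA1*, *NIT2* and *YUC11* were named after their values were seen. Windows, gene starts, q-value thresholds, overlap rules and libraries were varied. Python 3.11.15, numpy 2.4.6, pandas 2.3.3, scipy 1.17.1 and matplotlib 3.10.9 were used.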

Additional observations from a re-analysis of the deposited data

How the results depend on the processing

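Of 65 values under alternatives, 51 stayed near the main value (counts and shares within 1.5 times it, the position and fold enrichment of the strongest *YUC8* peak within 1 SD of the replicates), 14 moved and 0 reversed. With 1000 bp upstream plus the gene body, the *YUC* peaks of replicate 1 of *SUC2::CO:CIT* with a replicate 2 counterpart numbered 8 in place of 19, the mean number of *YUC* peaks per library was 8.5 in place of 26.5 and the share of all genes with a peak in both replicates was 35.7% in place of 60.2%. With the gene body alone these values were 3, 2.5 and 12.04%, and 2 in place of 9 *YUC* genes had a peak in both replicates. A −log10 q of at least 5 left 12 shared peaks. At a −log10 q of at least 10 there were 4 genes, 6 shared peaks, 7 peaks per library and 23.6% of all genes. Counting peaks only for the nearest start gave 34.8% of all genes. Counted from the start codon, the strongest *YUC8* summit lay at -1120 bp on average in place of -1001 bp. These shifts follow from the smaller window, the fewer peaks or the other origin of each alternative. Restricting all genes to those with long free upstream regions, chosen after seeing the data, gave 81.9%.

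With either *SUC2::CO:CIT* library left out, 9 to 10 *YUC* genes and 65.4% to 68.6% of all genes had a peak in the remaining one. This is a looser demand than a peak in both replicates. The remaining library held 26 to 27 *YUC* peaks. Leaving out each library in turn gave 0 *YUC* peaks in *SUC2::CO:CIT aba1-6* in every case. The number of shared peaks has no value without a *SUC2::CO:CIT* replicate, and the overlap of at least 50% of each peak bears only on that number (15 peaks). No paired analysis was possible because no result comes from a test. Peaks of *SUC2::CO:CIT aba1-6* rest on few fragments (medians of 15 and 7, against 37 and 36 in *SUC2::CO:CIT*), and at the depth of its replicate 2 all *YUC* peaks of equal enrichment would be expected below the 5 fragments needed, before counting error.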
